A study of Homo sapiens with 12 samples.

Results

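Axon guidance ligands and receptors were followed in cerebral organoids (COs) of WT and *c-JUN* knockout (KO) lines. They were taken by gene symbol, as every listed gene of the ephrin, Eph, semaphorin, plexin, neuropilin, Slit, Robo, netrin, UNC5 and *DCC* families, which gave 57 of the 10976 genes in the deposited table. The rule read symbols only, although these families were picked with earlier results of these data known. The 57 genes were 5 ephrin-A and 3 ephrin-B ligands, 8 EphA and 4 EphB receptors, 4 secreted and 11 membrane semaphorins, 8 plexins, 2 neuropilins, 3 Slits, 3 Robos, 2 netrins, and 4 netrin receptors (*DCC*, *UNC5B*, *UNC5C* and *UNC5D*). The COs were grown from H1ESCs, a human embryonic stem cell line, either WT or carrying a c-Jun knockout made with CRISPR-Cas9 in the lines KO#2 and KO#10. All 3 lines went through the same neural differentiation and cerebral organoid induction and were sampled at day 12 and day 24. Total RNA of several pooled COs made 1 library, and there were 2 libraries per line and day, 12 in all, so that each day had 2 WT and 4 KO libraries. Each KO line is a single clone and WT is a single line, so that a difference between genotype and one between lines cannot be told apart. The labels do not say whether replicates were separate inductions, so that *p*-values measure only the spread between these libraries.

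Growing axons are steered by cues that attract or repel the growth cone, and each cue family has its own receptors. Ephrin-A ligands are held to the membrane by a lipid anchor and bind mainly EphA receptors, and ephrin-B ligands span the membrane and bind mainly EphB receptors. Secreted class 3 semaphorins act through neuropilins paired with plexins, membrane semaphorins bind plexins directly, Slits repel axons through Robo receptors, and netrins attract axons through DCC and repel them through UNC5 receptors. In the forebrain these families place thalamocortical, corticofugal and commissural tracts, and many of them also act on migrating neurons, vessels and epithelia.

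*c-JUN* is a subunit of AP-1, a transcription factor that binds mainly TGACTCA and, in other dimers, TGACGTCA. The search used TGANTCA, in which any base may stand in the middle, and so also counts letters beyond the AP-1 motif. RefSeq promoters of GRCh38.p14, from 250 bases before to 50 bases after a transcription start, were found for 48 of the 57 genes and gave 74 promoters. The other genes were *UNC5B*, *EPHA10*, *NRP1*, *NTN1*, *SEMA6A*, *UNC5D*, *SEMA3A*, *SEMA6B* and *EFNB3*. Searched on both strands, TGANTCA stood in 1 of the 74 promoters (1.35%) and in 7.71% of all 35116 promoters of this length, and TGACGTCA in 2 of 74 (2.70%) and in 1.85% of all. The 3 matches lay in promoters of *PLXNC1*, a plexin (60 bases at chr12:94262502-94262561, plus strand), *EPHA2*, an Eph receptor (chr1:16156087-16156146, minus strand), and *SEMA4C*, a membrane semaphorin (chr2:96870087-96870146, minus strand). The matches are printed 5' to 3' with the matched letters in capitals to show where these letters occur in the families. That of *PLXNC1* reads TGATTCA and belongs to a listed start inside the gene, whose interval is 94148577 to 94307675.
PLXNC1: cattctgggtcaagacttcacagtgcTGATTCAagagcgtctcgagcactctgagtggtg
EPHA2: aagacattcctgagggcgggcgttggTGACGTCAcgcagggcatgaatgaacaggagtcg
SEMA4C: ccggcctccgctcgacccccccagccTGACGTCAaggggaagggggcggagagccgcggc
The next 3 are whole promoters of 300 bases of genes that were higher in KO at day 24 (described below) and have a single listed start: *EPHA3* (chr3:89107371-89107670, plus strand), *SLIT1* (chr10:97185910-97186209, minus strand) and *DCC* (chr18:52339947-52340246, plus strand). They hold no match to either motif and are therefore in lower case throughout.
EPHA3: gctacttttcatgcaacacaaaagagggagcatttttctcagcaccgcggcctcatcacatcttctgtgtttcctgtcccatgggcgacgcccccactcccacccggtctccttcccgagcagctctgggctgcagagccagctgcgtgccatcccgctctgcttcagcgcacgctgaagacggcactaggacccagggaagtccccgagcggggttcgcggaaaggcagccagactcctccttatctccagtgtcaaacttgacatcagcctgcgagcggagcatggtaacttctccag
SLIT1: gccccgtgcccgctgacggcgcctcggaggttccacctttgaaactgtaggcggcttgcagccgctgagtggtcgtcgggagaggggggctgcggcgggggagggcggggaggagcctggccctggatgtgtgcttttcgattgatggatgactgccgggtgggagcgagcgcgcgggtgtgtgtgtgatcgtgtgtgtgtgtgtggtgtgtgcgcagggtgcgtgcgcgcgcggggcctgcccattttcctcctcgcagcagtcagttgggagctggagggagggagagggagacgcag
DCC: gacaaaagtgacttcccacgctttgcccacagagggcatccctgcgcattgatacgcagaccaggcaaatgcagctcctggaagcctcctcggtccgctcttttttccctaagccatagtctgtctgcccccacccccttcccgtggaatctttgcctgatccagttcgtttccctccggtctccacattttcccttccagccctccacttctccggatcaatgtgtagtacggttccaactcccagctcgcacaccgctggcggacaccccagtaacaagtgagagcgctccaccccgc
A match to these letters is a description and not a binding site, and the absence of a match concerns these windows only. The median GC content was 66.7% in the 74 promoters, with a range from 36% to 87.3%, and 58.7% in all promoters.

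The deposited values are whole-number scores per gene, already normalized by the authors. The median was 17 and the highest value 5585 in every library, totals lay between 473637 and 483149, and sequencing depth is therefore unknown. Replicates correlated across genes at r = 0.909 to 0.957. *JUN* itself did not have lower values under the label KO. WT libraries had 4 and 8 and KO libraries 13 to 19 at day 12, and at day 24 WT had 13 and 15 and KO 29 to 39 (log2 fold change, log2FC, 1.25, standard error, SE, 0.17, adjusted *p* = 0.0184 at day 24 with limma, and 0.131 at day 12). Such a score cannot tell an edited transcript from an intact one, so that every direction given here rests on the labels WT and KO. The paper reports loss of c-JUN protein in the KO lines by western blot, and no *c-JUN* expression in KO COs by RT-qPCR. The deposited scores of *JUN* do not show such a loss. Neural identity of the COs was looked at with 12 neural progenitor genes, all of them listed. Their summed score at day 24 was 628 to 825 in WT and 1123 to 1367 in KO, with the 1123 in KO#10 replicate 1. *VIM* alone gave 316 and 354 of the WT sums and 748 of the 1123. The sum therefore rests largely on 1 gene and does not show neural identity in each library. Of the 12, 3 were called higher and 0 lower in KO, against 4.22% and 3.79% of all genes. Sums of marker genes of other cell types also differed between WT and most KO libraries at day 24. The 14 neuron genes summed to 219 and 376 in WT and to 1501, 1769 and 2167 in 3 KO libraries, 9 of 10 mesenchyme genes listed to 2232 and 2696 against 151 to 192, and 8 of 13 endoderm and yolk sac genes listed to 7174 and 7362 against 33 to 105. KO#10 replicate 1 stood apart from these 3 libraries, with 468 for neurons, 3305 for mesenchyme and 1297 for endoderm. *MAP2* alone gave 750 of the 1501, 668 of the 1769 and 1009 of the 2167 for neurons. *AFP* was at 5585, the highest value of every library, in both WT libraries. The neuron and endoderm sums therefore rest in large part on 1 gene each. For surface ectoderm and epithelium, 8 of 12 genes were listed (not *KRT5*, *KRT14*, *TP63* or *GRHL2*). They summed to 642 and 856 in WT, to 50 to 74 in the same 3 KO libraries and to 254 in KO#10 replicate 1. The endoderm genes *APOA2*, *APOB*, *SERPINA1*, *RBP4* and *FGB* were at 0 in replicate 2 of both KO clones. The 9 pluripotency genes listed summed to 519 and 992 in WT and to 60 to 86 in KO. Among genes tested, 8 of 8 pluripotency, 7 of 8 epithelial, 4 of 8 endoderm and 0 of 8 mesenchyme genes were called lower in KO, against 3.79% of all genes. Called higher were 3 of 13 neuron genes, against 4.22%. Without KO#10 replicate 1, 12 of 13 neuron and 6 of 12 neural progenitor genes were called higher, against 7.86% of all genes. In that fit 8 of 8 pluripotency, 7 of 8 epithelial, 8 of 8 endoderm and 7 of 7 mesenchyme genes were called lower, against 6.80%. This library was singled out from these same values, so that the gain is no independent evidence. Where KO#10 replicate 1 stood apart for a guidance gene or changed a count of calls, results are given with and without it. In bulk RNA, fewer cells of a type and less RNA per cell cannot be told apart.

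**Figure D1:**
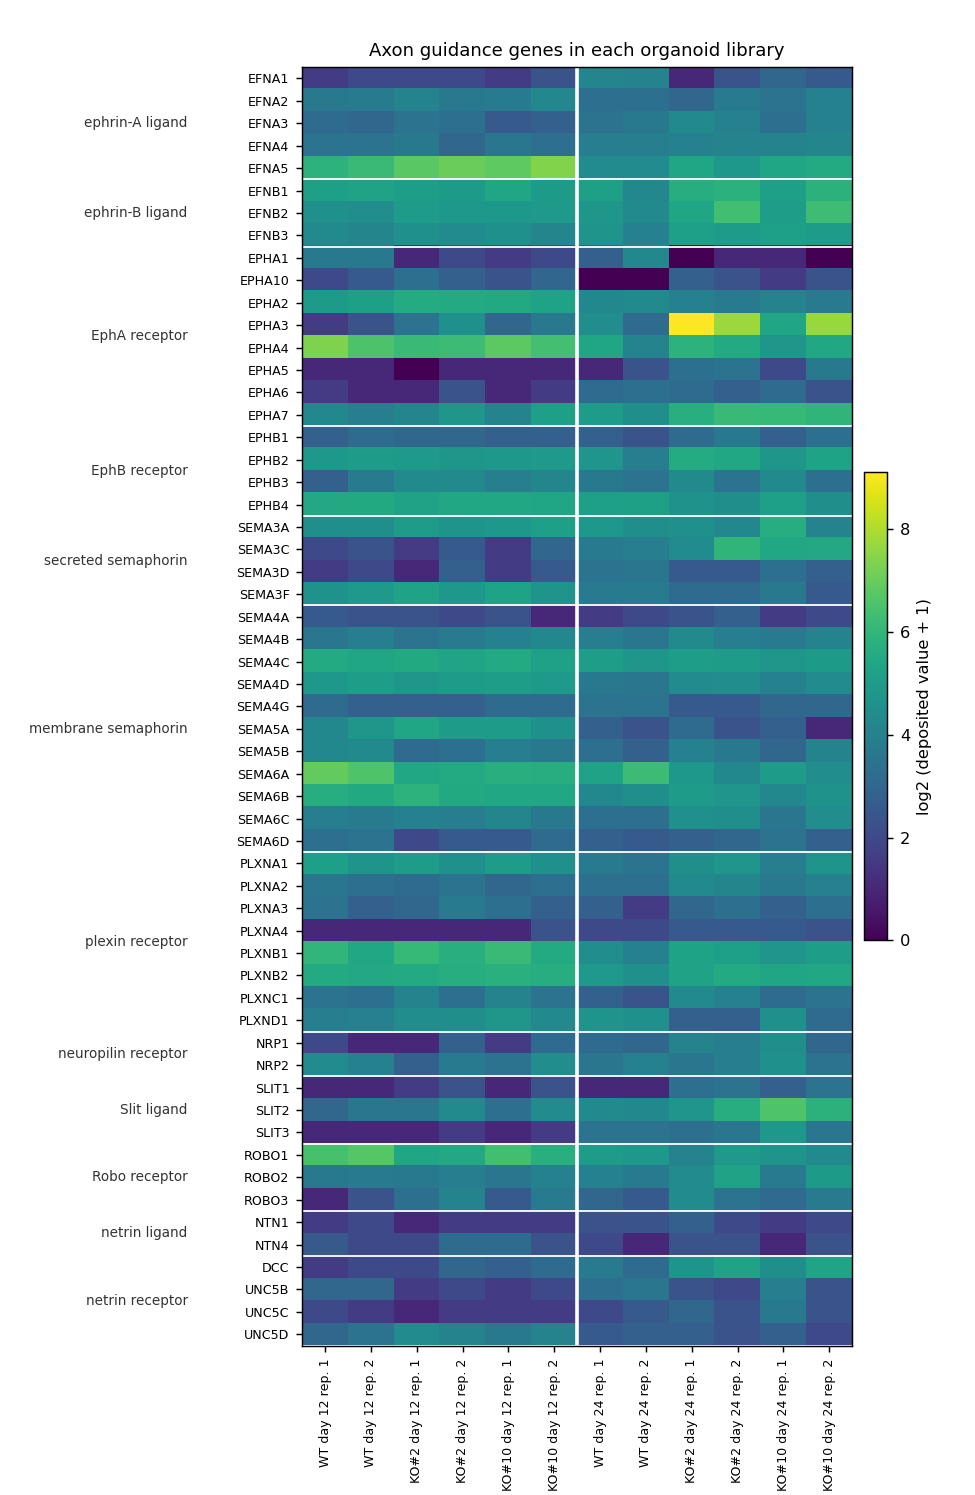
Values of the 57 axon guidance genes in the 12 libraries, as log2 (deposited value + 1), with rows grouped by family and columns by day, line and replicate. The brightest 3 cells are *EPHA3* at day 24 in KO#2 (552 and 212) and in KO#10 replicate 2 (206), whereas KO#10 replicate 1 was at 40 and WT at 21 and 8.

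At day 24 most guidance genes had higher values in KO than in WT, and few passed the test. With no filter on low values, 41 of the 57 had a positive and 16 a negative log2FC, with a median of 0.52 against 0.04 for all 10971 genes fitted (5774 positive, 5194 negative). Calls needed both an adjusted *p* below 0.05 and a 2-fold difference. In that fit 5 of the 57 were called higher, against 3.95% of all genes (*EPHA3*, *EPHA7*, *EPHA10*, *SLIT1* and *DCC*), and 1 was called lower, against 3.66% (*EPHA1*). Elsewhere, unless no filter is named, genes had to reach 10 in at least 2 libraries to be tested, which 44 did. Called higher were 5 of the 44 (11.4%), namely *EPHA3*, *EPHA7*, *SEMA3C*, *SLIT1* and *DCC*, against 4.22% of all 9289 genes tested. None of the 44 was called lower by limma, against 3.79% of all genes.

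The filter admits genes that are high in 1 genotype alone. Of the 44, 12 reached 10 in libraries of 1 genotype only, 9 of them in KO (*EFNA2*, *EPHA5*, *NRP1*, *PLXNA2*, *PLXNC1*, *ROBO3*, *SEMA5B*, *SEMA6C* and *SLIT1*) and 3 in WT (*EFNA1*, *SEMA3D* and *SEMA4G*). Of the other 32, 4 were called higher, against 2.46% of the 8210 genes that reached 10 in both genotypes, and *SLIT1* was the call that this left out. The KO and WT libraries did not overlap for 25 of the 44 (56.8%), against 44.0% of all genes, and 26 of the 44 had an unadjusted *p* under 0.05, against 3509 of 9289. At an unadjusted *p* under 0.05 and at least 2-fold, 9 genes were higher, against 6.20% of all genes, and 3 lower, against 5.46% (*EFNA1*, *PLXND1* and *SEMA6A*). Leaving out WT replicate 1, WT replicate 2, KO#2 replicate 2 or KO#10 replicate 2 took the 5 called higher to 0, in fits that called 0.134%, 0.0112%, 0.0549% and 0.0655% of all genes higher. Leaving out KO#2 replicate 1 gave 3 of 44 called higher, against 1.59% of all genes. They were *EPHA7* and *SEMA3C*, which were among the 5, and *SLIT2*, which was not. Leaving out KO#10 replicate 1 gave 13 of 43, against 7.86%, with *SEMA3C* no longer among them. The marker sums above also differed between WT and most KO libraries on this day, and their part in these differences was not tested.

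**Figure D2:**
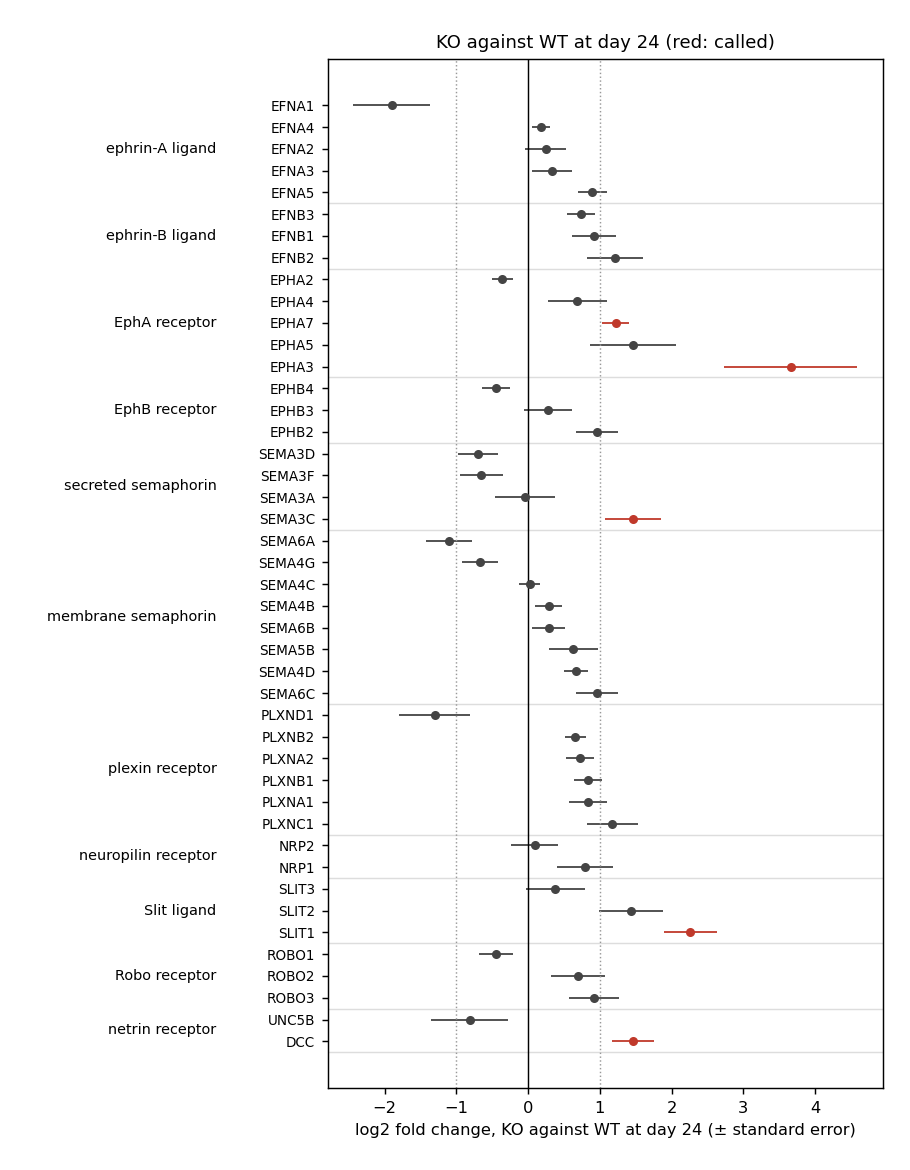
Log2FC of KO against WT at day 24 for the 44 guidance genes tested, with bars of ± 1 SE from limma and dotted lines at 2-fold. The 5 genes called, in red, run from *EPHA7* at 1.22 to *EPHA3* at 3.66, and *EFNA1* lies lowest at −1.90.

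EphA receptors held the largest change, and 2 of the 5 tested were called. *EPHA3* (ENSG00000044524, chromosome 3, 89107621 to 89482134, in coordinates compatible with GRCh38) encodes a receptor tyrosine kinase for ephrin-A ligands. In WT it stood at 2 and 4 at day 12 and at 21 and 8 at day 24, in KO#2 at 10 and 23 and then 552 and 212, and in KO#10 at 7 and 12 and then 40 and 206, each time for replicates 1 and 2. Every KO library was above both WT libraries on both days, KO#2 replicate 1 was highest, and KO#10 replicate 1 was the KO library nearest to WT. The log2FC at day 24 was 3.66 (SE 0.93, adjusted *p* = 0.0448), on a scale of log2 (value + 1) that understates changes of low values. Without KO#10 replicate 1 it was 4.37 (adjusted *p* = 0.00653), and the call was lost without WT replicate 1 (adjusted *p* = 0.115), WT replicate 2 (0.321), KO#2 replicate 1 (0.0769), KO#2 replicate 2 (0.111) or KO#10 replicate 2 (0.108), and without the variance trend (0.0510). *EPHA7* (ENSG00000135333, chromosome 6, 93240020 to 93419687), another EphA receptor, is used in topographic sorting of cortical and thalamic axons. Its values were 18 and 14 in WT at day 12 and 31 and 22 at day 24, 17 and 27 in KO#2 and then 52 and 70, and 16 and 34 in KO#10 and then 68 and 61. All 4 KO libraries were above WT at day 24, close to each other, and KO#10 replicate 1 was among the highest. The log2FC was 1.22 (SE 0.19, adjusted *p* = 0.0196). This call was lost without WT replicate 1 (adjusted *p* = 0.0558), WT replicate 2 (0.231), KO#2 replicate 2 (0.0665) or KO#10 replicate 2 (0.0695).

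The other EphA receptors and the ephrins were not called at day 24. *EPHA5*, an EphA receptor of the forebrain, passed the filter through KO alone. It had 1 and 4 in WT libraries, 9 and 10 with clone KO#2 and 3 and 12 with clone KO#10, so that the groups overlapped through KO#10 replicate 1 (log2FC 1.46, SE 0.60, adjusted *p* = 0.124). Without that library its log2FC was 1.83 (adjusted *p* = 0.0248). *EFNA1*, an ephrin-A ligand also made by epithelia and vessels, passed the filter through WT alone and had the largest negative value, with 17 and 16 in WT libraries, 1 and 4 with clone KO#2 and 7 and 5 with clone KO#10. All KO libraries were below WT, but the test was not passed (log2FC −1.90, SE 0.54, adjusted *p* = 0.0556). It was passed without KO#10 replicate 1 (−2.16, adjusted *p* = 0.0250) and without KO#2 replicate 1 (−1.49, adjusted *p* = 0.0485). The epithelial marker sum was also lower in every KO library, and its part in *EFNA1* was not tested. *EFNA5*, the ephrin-A ligand best known from retinal and thalamocortical mapping, had 20 and 20 in WT libraries, 40 and 28 with clone KO#2 and 40 and 47 with clone KO#10, which was below 2-fold (log2FC 0.90, SE 0.21, adjusted *p* = 0.0359). *EFNA2*, *EFNA3* and *EFNA4*, the remaining ephrin-A ligands, had log2FCs of 0.24, 0.33 and 0.18 and values between 7 and 19 in all libraries of that day. The ephrin-B ligands *EFNB1*, *EFNB2* and *EFNB3* had 0.91, 1.21 and 0.74, and of the EphB receptors *EPHB2* had 0.96, *EPHB3* 0.28 and *EPHB4* −0.44 (−0.59 without KO#10 replicate 1), and none of the 6 was called.

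Among 12 semaphorins tested at day 24, *SEMA3C* was the one called. *SEMA3C* (ENSG00000075223, chromosome 7, 80742538 to 80922359) encodes a secreted semaphorin that signals through neuropilins with plexins. Its values were 3 and 4 in WT at day 12 and 13 and 14 at day 24, 2 and 5 in KO#2 and then 20 and 61, and 2 and 7 in KO#10 and then 43 and 44. The genotypes overlapped at day 12 and were apart at day 24, when KO#2 replicate 1 was the lowest KO library. The log2FC at day 24 was 1.47 (SE 0.39, adjusted *p* = 0.0484). This value was close to the threshold, and the call was lost without KO#10 replicate 1 (adjusted *p* = 0.0580), WT replicate 1 (0.176), WT replicate 2 (0.292), KO#2 replicate 2 (0.104) or KO#10 replicate 2 (0.115), with no filter on low values (0.0538) or without the variance trend (0.0554). The other secreted semaphorins had log2FCs of −0.70 (*SEMA3D*), −0.65 (*SEMA3F*) and −0.04 (*SEMA3A*, SE 0.42). *SEMA3A* had 28 and 22 in WT libraries, 23 and 18 with clone KO#2 and 50 and 16 with clone KO#10. KO#10 replicate 1 thus held its highest value, and its log2FC near 0 depends on that library. *SEMA6A*, a membrane semaphorin that acts with plexins on thalamocortical axons and migrating neurons, had 37 and 74 in WT libraries, 28 and 18 with clone KO#2 and 31 and 21 with clone KO#10. All KO libraries were below WT, with a log2FC of −1.10 (SE 0.32, adjusted *p* = 0.0579), and −1.22 (adjusted *p* = 0.0398) without KO#10 replicate 1.

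Receptors of secreted semaphorins gave no call at day 24. *PLXND1*, a plexin of vessels and of axon tracts, had 25 and 23 in WT libraries, 6 and 6 with clone KO#2 and 23 and 8 with clone KO#10. KO#10 replicate 1 lay at the WT level and the other 3 KO libraries far below it. *KDR*, the only endothelial marker listed of 9, had 24 and 21 in WT libraries, 8 in KO#10 replicate 1 and 1 in the other KO libraries, and its part was not tested. With all libraries the log2FC was −1.30 (SE 0.50, adjusted *p* = 0.105), and without KO#10 replicate 1 it was −1.71 (adjusted *p* = 0.00433). *NRP1*, the neuropilin that binds SEMA3A, had 8 and 7 in WT libraries, 16 and 14 with clone KO#2 and 22 and 7 with clone KO#10, so that the groups overlapped (log2FC 0.79, and 0.58 without KO#10 replicate 1). *NRP2*, the neuropilin that binds SEMA3F, overlapped fully, with 11 and 15 in WT and 10 to 23 in KO (log2FC 0.09, and −0.14 without KO#10 replicate 1, which held the 23). The plexins *PLXNB1* (0.83, adjusted *p* = 0.0384) and *PLXNB2* (0.66, adjusted *p* = 0.0359), and *SEMA4D* (0.67, adjusted *p* = 0.0448, and 0.77 without KO#10 replicate 1), a membrane semaphorin that binds PLXNB1, were higher in KO by less than 2-fold. *PLXNA1*, *PLXNA2* and *PLXNC1* had log2FCs of 0.84, 0.73 and 1.17 that missed the adjusted threshold.

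All 3 Slit ligands had positive log2FCs at day 24, and *SLIT1* was called. *SLIT1* (ENSG00000187122, chromosome 10, 96998038 to 97185959) encodes a secreted repellent of the nervous system. It was listed at 1 in all 4 WT libraries, clone KO#2 had 2 and 4 at day 12 and then 9 and 10, and clone KO#10 had 1 and 4 and then 6 and 10. All KO libraries lay above WT at day 24, at low values. *SLIT1* reached 10 in 2 KO libraries alone and so entered the test through the group in which it was higher. The log2FC was 2.26 (SE 0.37, adjusted *p* = 0.0206), and with no filter, where this does not arise, the adjusted *p* was 0.0152. Without WT replicate 1, WT replicate 2 or KO#2 replicate 1 the call was lost (adjusted *p* = 0.0776, 0.231 and 0.0612), and without KO#2 replicate 2 or KO#10 replicate 2 *SLIT1* fell below the filter. The annotation holds a read-through gene on the same strand, *ARHGAP19-SLIT1*, which shares exons with *SLIT1*, so that its score is uncertain in this respect. *SLIT2*, a midline repellent, had 19 and 18 in WT libraries, 26 and 50 with clone KO#2 and 96 and 57 with clone KO#10 (log2FC 1.44, SE 0.44, adjusted *p* = 0.0660). Every KO library was above WT, and KO#10 replicate 1 was highest. *SLIT2* was called without KO#10 replicate 1 (1.14, adjusted *p* = 0.0492) and without KO#2 replicate 1 (1.76, adjusted *p* = 0.0440). *SLIT3* had 10 and 10 in WT libraries, 9 and 11 with clone KO#2 and 28 and 11 with clone KO#10 (log2FC 0.38, and 0.04 without KO#10 replicate 1), so that only KO#10 replicate 1 was far from WT.

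The Robo receptors did not pass the test at day 24. *ROBO1* had 32 and 28 in WT libraries, 16 and 29 with clone KO#2 and 25 and 19 with clone KO#10 (log2FC −0.45, adjusted *p* = 0.212). *ROBO2* had 15 and 13 in WT libraries, 20 and 37 with clone KO#2 and 13 and 30 with clone KO#10 (0.70, adjusted *p* = 0.217). *ROBO3*, which lets commissural axons cross the midline, had 7 and 5 in WT libraries, 20 and 10 with clone KO#2 and 8 and 13 with clone KO#10 (0.91, adjusted *p* = 0.106). Groups overlapped for *ROBO1* and *ROBO2*, and for *ROBO3* all KO libraries were above WT. *ROBO3*, which passed the filter through KO alone, was called without KO#10 replicate 1 (1.09, adjusted *p* = 0.0442).

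Of the netrin system, *DCC* was called at day 24. *DCC* (ENSG00000187323, chromosome 18, 52340197 to 53535903) encodes the receptor through which netrin-1 attracts commissural and thalamocortical axons. Its values were 2 and 3 in WT at day 12 and 13 and 8 at day 24, 3 and 7 in KO#2 and then 25 and 37, and 6 and 8 in KO#10 and then 22 and 39. The KO libraries were above WT at day 24, with KO#10 replicate 1 the lowest of them. The log2FC was 1.46 (SE 0.29, adjusted *p* = 0.0277). It was 1.60 (adjusted *p* = 0.0119) without KO#10 replicate 1, and the call was lost without WT replicate 1 (adjusted *p* = 0.0728), WT replicate 2 (0.262), KO#2 replicate 1 (0.0565), KO#2 replicate 2 (0.0827) or KO#10 replicate 2 (0.0765). A noncoding gene, *LINC01917*, overlaps *DCC* on the opposite strand, and whether the counting used strand is not stated. *NTN1*, the gene of netrin-1, was below the filter, with 4 and 4 in WT and 2 to 6 in KO, and *NTN4*, another netrin, had 1 to 4 in all libraries of that day. *UNC5B*, a repulsive netrin receptor, had 9 and 11 in WT libraries, 4 and 3 with clone KO#2 and 14 and 4 with clone KO#10 (log2FC −0.82), so that KO#10 replicate 1 lay above WT and the other KO libraries below it. Without KO#10 replicate 1 it was below the filter.

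**Figure D3:**
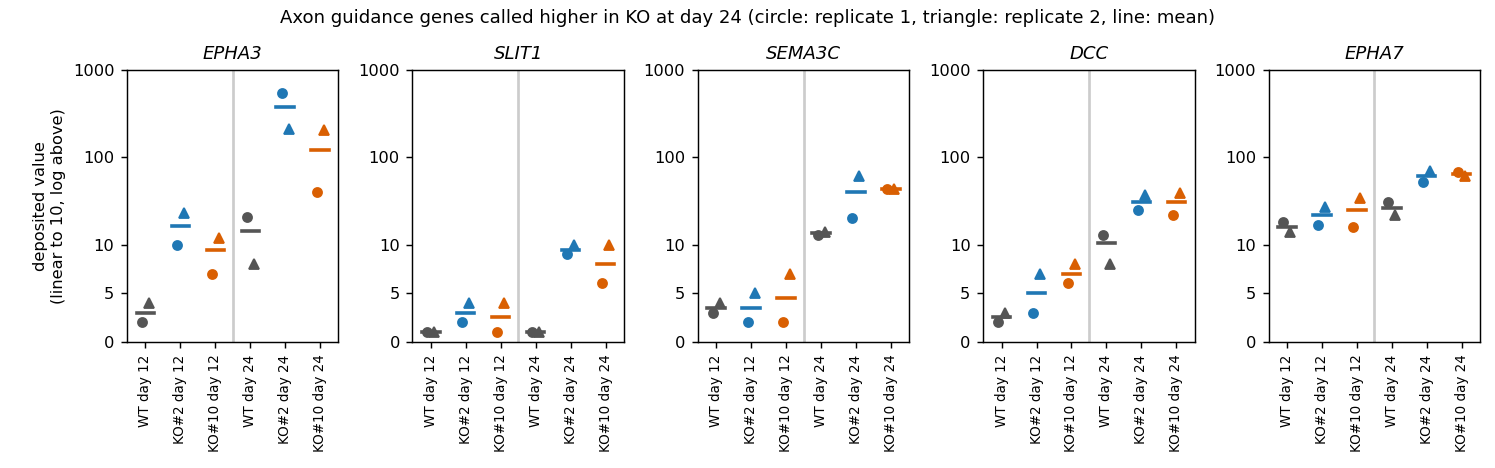
Deposited values of the 5 guidance genes called higher in KO at day 24, by line and day, with a circle for replicate 1, a triangle for replicate 2 and a line at the mean (vertical axis linear to 10 and logarithmic above). At day 24 the lowest KO library lies above the highest WT library in each panel, with 40 against 21 for *EPHA3* and 52 against 31 for *EPHA7*.

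The remaining 13 of the 57 genes were below the filter at day 24. *EPHA1*, an Eph receptor of epithelia, had 6 and 18 in WT libraries and 0 or 1 in KO, and *EPHA10*, an Eph receptor that lacks kinase activity, was listed at 0 in both WT libraries and at 2 to 6 in KO. *EPHA1* was called in the fit of all 12 libraries (log2FC −3.03, adjusted *p* = 0.00276) and with no filter (adjusted *p* = 0.0252), and *EPHA10* was called higher with no filter (2.26, adjusted *p* = 0.0249). The epithelial marker sum was lower in KO as well, and its part in *EPHA1* was not tested. The others were *EPHA6*, *EPHB1*, *NTN1*, *NTN4*, *PLXNA3*, *PLXNA4*, *SEMA4A*, *SEMA5A*, *SEMA6D*, *UNC5C* and *UNC5D*. Of these 13, *EPHA6*, *EPHA10*, *EPHB1*, *NTN1*, *NTN4*, *PLXNA4*, *SEMA4A* and *UNC5C* were too low to be tested in any comparison that used this filter.

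Without KO#10 replicate 1, more guidance genes passed the test at day 24. This library was singled out from these same values, so that the gain is no independent evidence. Of all genes, 4.22% were called higher with it and 7.86% without it. Of 43 tested, 13 were higher, against 7.86% of all genes in the same fit, and 3 were lower, against 6.80%. The 13 were *EPHA3*, *EPHA5*, *EPHA7*, *EPHB2*, *EFNB1*, *EFNB2*, *SEMA6C*, *PLXNA1*, *PLXNC1*, *SLIT1*, *SLIT2*, *ROBO3* and *DCC*, and the 3 were *EFNA1*, *PLXND1* and *SEMA6A*. Of these, *EPHA5*, *PLXNC1*, *ROBO3*, *SEMA6C* and *SLIT1* had reached 10 in KO alone and *EFNA1* in WT alone. Newly called were, among others, *EFNB1* (log2FC 1.08), *EFNB2* (1.44), *EPHB2* (1.12), *PLXNA1* (1.03) and *PLXNC1* (1.36). *SEMA6C*, a membrane semaphorin, had 9 and 9 in WT libraries, 23 and 22 with clone KO#2 and 11 and 21 with clone KO#10 (log2FC 1.20 without KO#10 replicate 1, adjusted *p* = 0.00429, and 0.97 with it, adjusted *p* = 0.0639). KO#10 replicate 1 held the highest value among the KO libraries for 13 of the 44 genes tested (29.5%), against 29.3% of all genes. Its mesenchyme sum of 3305 was above both WT libraries and its endoderm sum of 1297 was between WT and the other KO libraries. The part of these cells in the values was not tested.

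**Figure D4:**
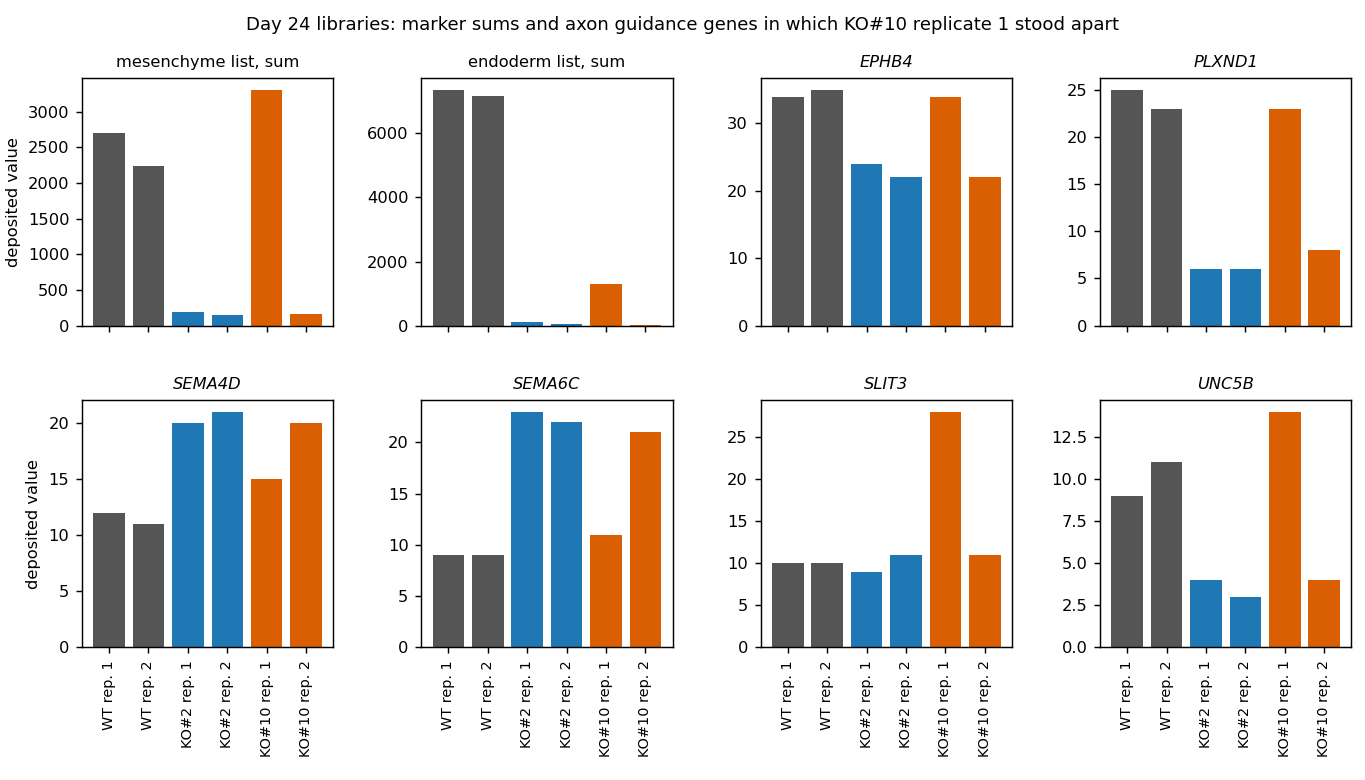
Bars of the deposited value in the 6 libraries of day 24 for the summed mesenchyme and endoderm markers and for 6 guidance genes in which KO#10 replicate 1 stood apart from the other KO libraries. In *PLXND1* it was at 23, near WT at 25 and 23, and in *SLIT3* and *UNC5B* it was at 28 and 14, above all other libraries.

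At day 12 no guidance gene was called. Of 37 tested, 22 had a positive and 15 a negative log2FC (median 0.13 against −0.00202 for all 8885 genes tested), and limma called 0 of 37, against 0.0900% of all genes. An unadjusted *p* under 0.05 was found for 13 of the 37, against 980 of 8885, and the genotypes did not overlap for 15 of the 37 (40.5%), against 16.6% of all genes. A pairing of same-numbered libraries on this day was inferred from the values themselves and remains uncertain. With the replicate as a block on that assumption, 3 of the 37 were called, against 0.799% of all genes. *EPHA3*, with 2 and 4 in WT and 7 to 23 in KO, was 1 of them (log2FC 1.73, adjusted *p* = 0.0445 with the block and 0.200 without). *ROBO3* had 1 and 4 in WT libraries, 9 and 16 with clone KO#2 and 5 and 13 with clone KO#10 (1.79, adjusted *p* = 0.0418 with the block and 0.248 without). *SEMA6A* had 121 and 96 in WT libraries, 42 and 47 with clone KO#2 and 52 and 50 with clone KO#10 (−1.16, adjusted *p* = 0.0215 with the block and 0.0673 without). In all 3 the WT and KO libraries were apart. *EPHA3* and *ROBO3* reached 10 on this day in KO alone, and with the block and no filter neither was called (adjusted *p* = 0.0850 and 0.0656), whereas *SEMA6A* was (0.0475), 1 of 57 against 0.293% of all genes. *EPHA1* was lower in every KO library, with 12 and 12 in WT libraries, 1 and 3 with clone KO#2 and 2 and 3 with clone KO#10 (−2.05, SE 0.50, adjusted *p* = 0.189), and was called in neither fit. *EFNA5* had 58 and 72 in WT libraries, 110 and 134 with clone KO#2 and 114 and 167 with clone KO#10 (0.99, adjusted *p* = 0.129).

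Between day 12 and day 24, guidance genes moved in both directions in either genotype. Of 49 tested in a fit of all 12 libraries, 5 rose in WT (10.2%, against 7.17% of all genes) and 10 fell (20.4%, against 7.88%). In KO 9 rose (18.4%, against 5.88%) and 7 fell (14.3%, against 5.59%), and without KO#10 replicate 1 of day 24 these were 12 and 9 of 47, against 5.97% and 5.56%. *EFNA3*, *EFNB2* and *ROBO2* were then added to those that rose in KO, and *EPHA1* and *SEMA6A* to those that fell. In WT 6 of 47 rose in that fit, against 7.71% of all genes, with *EPHA3* among them, and 10 fell, against 8.19%. Genes that passed the filter only through the samples in which they rose were *EFNA1* and *SEMA3D* in WT and *EPHA5*, *NRP1* and *SLIT1* in KO. With no filter all 5 were called as well, in fits in which 6 of the 57 rose in WT, against 7.41% of all genes, and 12 in KO, against 7.22%. The 5 that rose in WT became 1 without WT replicate 1 of either day, 3 without WT replicate 2 of day 12 and 2 without WT replicate 2 of day 24, and the 10 that fell became 6 without WT replicate 1 of day 12. The share of all genes called in those fits is not given here, so that the drops are not shown to be particular to the guidance genes. The comparisons in WT and in KO share no library, although they share 1 estimate of spread. In both, 3 genes rose (*DCC*, *SEMA3C* and *SLIT3*) and 3 fell (*EFNA5*, *ROBO1* and *SEMA5A*), and none was called in opposite directions. Without KO#10 replicate 1 of day 24, *EPHA3* also rose in both. A gene called in 1 genotype only is not thereby shown to differ between them, and the test of that difference is given further on.

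**Figure D5:**
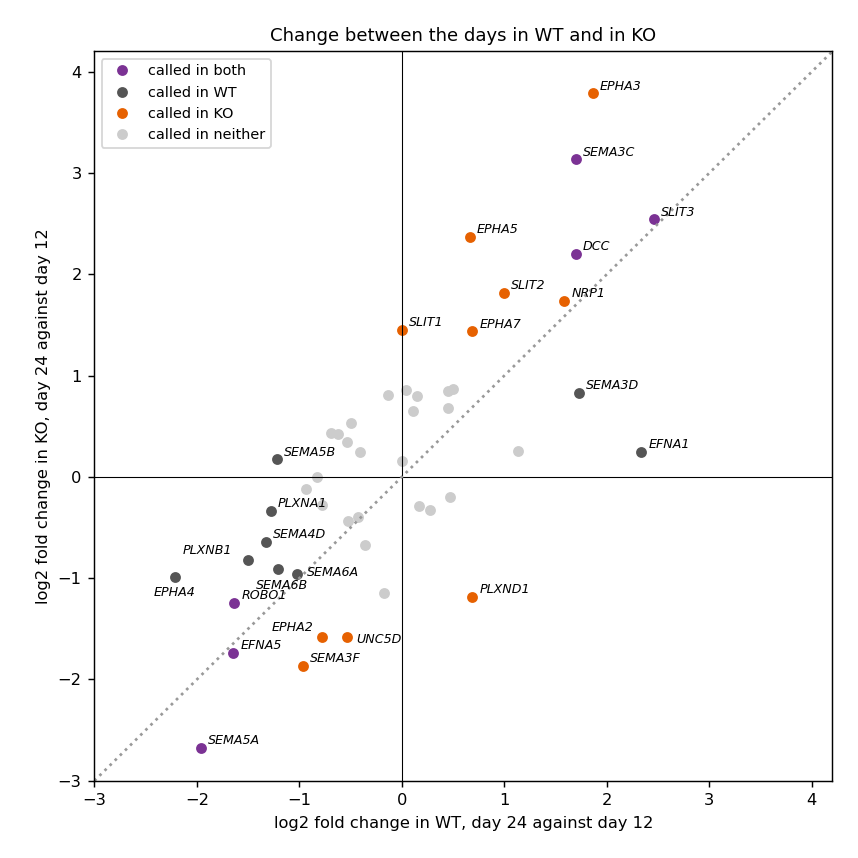
Log2FC of day 24 against day 12 in WT (horizontal) and in KO (vertical) for the 49 guidance genes tested, with the dotted line marking equal change. *EPHA3* lies at 1.86 in WT and 3.79 in KO, *PLXND1* at 0.69 and −1.19, and *EFNA1* at 2.34 and 0.25.

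Ephrins and Eph receptors moved in both directions over time. The ligand *EFNA5* fell in WT from 58 and 72 to 20 and 20 (log2FC −1.64, SE 0.24, adjusted *p* = 0.000981) and in KO from between 110 and 167 to between 28 and 47 (−1.74, SE 0.17, adjusted *p* = 3.19e-05). The ligand *EFNA1* rose in WT from 2 and 3 to 17 and 16 (2.34, SE 0.54, adjusted *p* = 0.00850, and 0.0635 without WT replicate 1 of day 12), and in KO stood at 2 to 4 and then 1 to 7 (0.25). In KO the receptors *EPHA3* (3.79, SE 0.63, adjusted *p* = 0.000868), *EPHA7* (1.44, SE 0.22, adjusted *p* = 0.000563) and *EPHA5* rose. *EPHA5* stood at 0 or 1 in all KO libraries of day 12 and at 3 to 12 at day 24 (2.37, SE 0.49, adjusted *p* = 0.00310, and 0.00131 with no filter), and fell below the filter without KO#2 replicate 2 or KO#10 replicate 2 of day 24. In WT, *EPHA3* had a log2FC of 1.86 (adjusted *p* = 0.133, and 0.0300 without KO#10 replicate 1 of day 24, which shares the estimate of spread). *EPHA2*, an Eph receptor of pluripotent and epithelial cells, fell in KO from 48 and 47 in KO#2 and 45 and 38 in KO#10 to 15 and 13 and to 16 and 13 (−1.58, SE 0.12, adjusted *p* = 4.98e-06), and in WT went from 30 and 35 to 18 and 19 (−0.78). *EPHA4*, a receptor for ephrins of both classes, fell in WT from 162 and 93 to 41 and 16 (−2.21, SE 0.42, adjusted *p* = 0.00351). In KO it stood at 72 to 111 and then at 27 to 58 (−0.98, adjusted *p* = 0.0215), just under 2-fold.

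The membrane semaphorins and plexins called between the days all fell. *SEMA5A*, a membrane semaphorin with thrombospondin repeats, fell in WT from 18 and 27 to 6 and 4 (log2FC −1.96, SE 0.54, adjusted *p* = 0.0178) and in KO from between 23 and 40 to between 1 and 8 (−2.67, SE 0.38, adjusted *p* = 0.000345). In WT its call was lost without either day 12 library (adjusted *p* = 0.0548 and 0.0959) or without WT replicate 2 of day 24 (0.110). Its relative *SEMA5B* fell in WT from 18 and 19 to 9 and 6 (−1.22, SE 0.35, adjusted *p* = 0.0211). In KO it stood at 8 to 14 and then at 7 to 16 (0.17). *SEMA4D* fell in WT from 28 and 33 to 12 and 11 (−1.33, SE 0.18, adjusted *p* = 0.000648), and its receptor *PLXNB1* from 63 and 43 to 21 and 15 (−1.50, SE 0.26, adjusted *p* = 0.00202). *SEMA6A* (−1.03, SE 0.30, adjusted *p* = 0.0248), *SEMA6B* (from 50 and 45 to 18 and 22, −1.21, SE 0.23, adjusted *p* = 0.00373) and *PLXNA1*, a coreceptor of class 3 semaphorins (from 34 and 25 to 13 and 10, −1.28, SE 0.28, adjusted *p* = 0.00696), also fell in WT. The WT calls of *SEMA6A*, *SEMA5B* and *PLXNA1* were lost without WT replicate 1 of day 12 (adjusted *p* = 0.149, 0.0853 and 0.0663), of *SEMA6A* also without WT replicate 1 of day 24 (0.218), of *SEMA5B* also without WT replicate 2 of day 12 (0.0786) or of day 24 (0.145), and of *PLXNA1* also without WT replicate 2 of day 24 (0.0606). In KO, *SEMA4D*, *PLXNB1*, *SEMA6A* and *SEMA6B* had log2FCs from −0.96 to −0.64, with adjusted *p* under 0.05 but below 2-fold.

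Secreted semaphorins and their receptors changed in both directions over time. *SEMA3C* rose in WT (log2FC 1.70, SE 0.51, adjusted *p* = 0.0268) and in KO (3.14, SE 0.36, adjusted *p* = 8.68e-05). The WT call was lost without WT replicate 1 or 2 of day 12 (adjusted *p* = 0.135 and 0.0623) or WT replicate 1 or 2 of day 24 (0.0852 and 0.114). *SEMA3D* rose in WT from 2 and 3 to 10 and 11 (1.73, SE 0.53, adjusted *p* = 0.0293, lost without WT replicate 1 or 2 of day 12 at 0.149 and 0.0611), and in KO stood at 1 to 6 and then at 5 to 9 (0.83). *SEMA3F*, which repels axons through NRP2, fell in KO from 37 and 28 in KO#2 and 38 and 25 in KO#10 to 8 and 8 and to 12 and 5 (−1.87, SE 0.21, adjusted *p* = 8.14e-05). In WT it went from 24 and 29 to 13 and 13 (−0.97, adjusted *p* = 0.0305). *NRP1* rose in KO from 1 and 6 in KO#2 and 2 and 8 in KO#10 to 16 and 14 and to 22 and 7 (1.74, SE 0.47, adjusted *p* = 0.0124), although the days overlapped, and without KO#10 replicate 1 of day 24 its log2FC was 1.52 (adjusted *p* = 0.0328). *PLXND1* fell in KO from 21 and 22 in KO#2 and 27 and 19 in KO#10 to 6 and 6 and to 23 and 8 (−1.19, SE 0.32, adjusted *p* = 0.0119), and KO#10 replicate 1 of day 24 lay within the range of day 12. Without that library the log2FC was −1.60 (adjusted *p* = 2.44e-05). In WT *PLXND1* stood at 14 and 15 and then at 25 and 23 (0.69, adjusted *p* = 0.262).

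All 3 Slits were called higher at day 24 than at day 12 in KO, *SLIT1* with the limit of the filter given above. *SLIT3* stood at 1 or 2 in every library of day 12 and rose in WT (log2FC 2.46, SE 0.47, adjusted *p* = 0.00348) and in KO (2.54, SE 0.33, adjusted *p* = 0.000195, and 2.20 without KO#10 replicate 1 of day 24). *SLIT2* rose in KO from 11 and 19 in KO#2 and 9 and 20 in KO#10 (1.82, SE 0.35, adjusted *p* = 0.00184), and in WT went from 7 and 11 to 19 and 18 (0.99, adjusted *p* = 0.141). *SLIT1* rose in KO (1.45, SE 0.36, adjusted *p* = 0.00808), and was at 1 in WT on both days. With no filter its adjusted *p* was 0.00329. *SLIT1* fell below the filter without KO#2 replicate 2 or KO#10 replicate 2 of day 24. The receptor *ROBO1* fell in WT from 87 and 104 to 32 and 28 (−1.64, SE 0.31, adjusted *p* = 0.00333) and in KO from 41 and 44 in KO#2 and 80 and 53 in KO#10 to 16 and 29 and to 25 and 19 (−1.24, SE 0.22, adjusted *p* = 0.00119). In the netrin system, *DCC* rose in WT (1.70, SE 0.39, adjusted *p* = 0.00820) and in KO (2.20, SE 0.28, adjusted *p* = 0.000154). Its WT call was lost without WT replicate 1 of day 12 (adjusted *p* = 0.0668) or of day 24 (0.0645). *UNC5D*, a receptor for netrins and for FLRT adhesion proteins, fell in KO from 20 and 16 in KO#2 and 12 and 16 in KO#10 to 6 and 4 and to 6 and 3 (−1.58, SE 0.22, adjusted *p* = 0.000344), and in WT stood at 7 and 10 and then at 5 and 6 (−0.53).

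Whether the difference between KO and WT changed between the days was tested as an interaction of genotype and day. None of the 49 guidance genes was called, against 1.31% of all 9952 genes tested, and 17 of the 49 had an unadjusted *p* under 0.05, against 2136 of 9952. The largest estimates were −2.09 for *EFNA1* (SE 0.66, adjusted *p* = 0.110), 1.93 for *EPHA3* (SE 1.10, adjusted *p* = 0.334), −1.87 for *PLXND1* (SE 0.55, adjusted *p* = 0.0900), 1.71 for *EPHA5* (SE 0.86, adjusted *p* = 0.273) and 1.45 for *SLIT1* (SE 0.63, adjusted *p* = 0.204), on the log2 scale. Without KO#10 replicate 1 of day 24, 10 of 47 were called, against 9.26% of all genes. *EFNB1*, *EPHA3*, *EPHB2*, *PLXNA1*, *PLXNA2*, *SEMA5B* and *SEMA6C* then had a more positive difference at day 24, and *EFNA1*, *PLXND1* and *SEMA3F* a more negative one, with *PLXND1* at −2.29 (adjusted *p* = 0.000622) and *EPHA3* at 2.63 (adjusted *p* = 0.0384). Without WT replicate 1 of day 24, *EPHB2* was called (1.47, adjusted *p* = 0.0477).

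The KO clones were compared with each other on each day. At day 24 limma called 0 of 44 guidance genes, against 0% of all genes, and 2 of the 44 had an unadjusted *p* under 0.05, against 479 of 9289. At day 12 it called 0 of 37, against 0% of all genes, with 2 of 37 against 115 of 8885 at an unadjusted *p* under 0.05. The largest differences of KO#2 minus KO#10 at day 24 were 1.90 for *EPHA3* (SE 0.89), −1.13 for *EFNA1* (SE 0.49), −1.07 for *PLXND1* (SE 0.44), −1.02 for *SLIT2* (SE 0.37) and −0.95 for *UNC5B* (SE 0.55), each with an adjusted *p* of 0.825. Leaving out 1 library at a time moved them to between 0.73 and 3.07 for *EPHA3*, −1.79 and −0.47 for *EFNA1*, −1.78 and −0.36 for *PLXND1*, −1.47 and −0.56 for *SLIT2* and −1.75 and −0.79 for *UNC5B*. The values without KO#10 replicate 1 were 0.73 for *EPHA3*, −0.92 for *EFNA1*, −0.36 for *PLXND1* and −0.64 for *SLIT2*, and *UNC5B* was then below the filter. At day 12 they were 0.67 for *EPHA3*, −0.65 for *NRP2*, −0.61 for *ROBO1*, −0.56 for *SEMA5B* and 0.51 for *ROBO3*. With 2 libraries per clone, these tests do not show that the clones were alike.

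Other genes of the same pathways were described from 3 lists. Of 19 adhesion molecules of growing axons, 12 were tested at day 24, and 5 were higher in KO and none lower, against 4.22% and 3.79% of all genes tested, with a median log2FC of 1.31. They were *CNTN2* (3.12, SE 0.36, adjusted *p* = 0.0171), *NCAM1* (2.06), *NFASC* (1.84), *CHL1* (1.39) and *TENM3* (1.04). *CNTN2*, a contactin of early fibre tracts, had 2 and 2 in WT libraries, 38 and 31 with clone KO#2 and 14 and 24 with clone KO#10. Of 25 other guidance cues and receptors, 21 were tested and 5 were higher and none lower (median 0.89), namely *CDON* (1.20), *GAS1* (1.15), *DRAXIN* (1.08), *PTPRS* (1.07) and *VANGL2* (1.06). *CDON* and *GAS1* are coreceptors of Sonic hedgehog, and *DRAXIN* encodes a secreted cue that binds DCC. Of 47 intracellular effectors, 39 were tested, 7 were higher and 1 lower (median 0.31). Among the higher ones were *PAK3* (1.95) and *GAP43* (1.95), a growth cone kinase and a growth cone protein, *SRGAP3* (1.89), which acts downstream of Robo, and *DPYSL4* (1.40) and *DPYSL2* (1.29), of the collapsin response mediator family, and the lower one was *VASP* (−1.20), an actin regulator. Without KO#10 replicate 1, 8 of 12 adhesion genes, 11 of 20 other cues and receptors and 11 of 39 effectors were higher, against 7.86% of all genes, and 0, 0 and 1 lower, against 6.80%. Over time, against 5.88% of all genes rising and 5.59% falling in KO and 7.17% and 7.88% in WT, 6 of 12 adhesion genes rose in KO and 2 in WT with none falling, and of 22 other cues and receptors 4 rose and 2 fell in KO while 1 rose and 7 fell in WT. Of 40 intracellular effectors, 5 rose and 2 fell in KO, and 2 rose and 3 fell in WT. Without KO#10 replicate 1 of day 24, 7 adhesion genes rose in KO, and of the other cues and receptors 2 rose and 1 fell. Of the effectors, 5 rose and 2 fell in KO in that fit as well. In the test of the change between the days, *DRAXIN* was called (1.87, SE 0.30, adjusted *p* = 0.0188, and 1.97 and 0.00256 without KO#10 replicate 1 of day 24). It went from 18 and 13 in WT at day 12 to 6 and 5 at day 24, and in KO from 8 or 9 to between 10 and 17. The neuron markers given above moved in the same direction as these lists at day 24, and their part was not tested.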

How the data were processed

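Total RNA of pooled COs was sequenced in 12 libraries. The authors deposited a whole-number score per gene and library, which is a normalized value and not a raw count. The submitters' processing notes name bcl2fastq, Bowtie2, RSEM and the build mm10, although the gene identifiers are human. Their roles, the annotation and the normalization are not given in the sources used here. All 10976 identifiers are in GENCODE 29 (GRCh38), and the intervals of all 57 guidance genes overlap it. An exon of another gene overlaps 21 of the 57, on the opposite strand for 18 and on the same strand for 3 (*EFNA3*, *EFNA4* and *SLIT1*).

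Groups came from the labels. Values were transformed as log2 (value + 1), genes reaching 10 in 2 or more libraries of a fit were kept, and limma 3.58.1 (R 4.3.3) with lmFit and a trended eBayes gave log2 fold changes (log2FC), standard errors (SE) and *p*-values, adjusted by Benjamini-Hochberg over all genes tested. Calls needed an adjusted *p* below 0.05 together with a 2-fold difference. KO against WT was fitted within a day, changes between days and the interaction in all 12 libraries, and clones in 3 groups within a day. An exact permutation test of 2 against 4 libraries cannot go below 0.0667. The code was tested on simulated data. Named were genes called, genes whose binding partner was called, the 5 largest changes of a comparison and, of the partner lists, the 5 largest called in each direction. The genes, lists and tests were chosen with earlier results of these data known.

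Replicate numbers come from the sample titles. Deviations of same-numbered libraries from their group means correlated at day 12 (r = 0.349, 0.337 and 0.509), so that the numbers were taken to pair these libraries. No cutoff was set, and r at day 24 was 0.193, −0.0940 and 0.303, so that the pairing remains uncertain on both days. Alternatives were filters of 5, 20 or none, pseudocounts of 0.1 and 5, no trend, unadjusted *p*, the block, separate clones, other sets of libraries, each library left out and, added after seeing the data, centring of libraries and, at day 12, the block with no filter. With 1 library left in a line or day, the lone library is assumed to vary like the others. Python 3.11.15, pandas 2.3.3, numpy 2.4.6 and matplotlib 3.10.9 made tables and figures.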

Additional observations from a re-analysis of the deposited data

Results flagged for a closer look

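Among 81 groups of 4 KO libraries, 1 for each guidance gene tested on each day, 7 held a library far from the other 3 (by Dixon's test), and chance gives about 1 in 20. In 6 of the 7 this was KO#10 replicate 1 at day 24. It was higher than the other KO libraries for *EPHB4*, an EphB receptor (34 against 22 to 24), *PLXND1*, a plexin (23 against 6 to 8), *SLIT3*, a Slit ligand (28 against 9 to 11), and *UNC5B*, a netrin receptor (14 against 3 to 4). It was lower for the membrane semaphorins *SEMA4D* (15 against 20 to 21) and *SEMA6C* (11 against 21 to 23). Except in *SLIT3*, it lay nearer to WT than the other KO libraries did. The remaining group was *SEMA6B* at day 12, where KO#2 replicate 1 stood at 58 against 43 to 45. No cause was tested.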

How the results depend on the processing

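Of 58 results for single guidance genes, 1146 alternatives gave 1067 values on the same side of the threshold and with the same direction, 55 that were no longer called, 23 newly called and 1 with the opposite sign, which was *ROBO3* between the clones at day 12 (−0.10 without KO#10 replicate 1, with a range from −0.10 to 0.89 over the libraries left out). For KO against WT at day 24, the 5 guidance genes called higher became 3 without the variance trend, 9 at an unadjusted *p* (6.20% of all genes), 8 of 49 with all 12 libraries in 1 fit (5.92% of all genes) and 0 to 13 when each library was left out. The 0 called lower became 1 with no filter, with a filter of 5, with a pseudocount of 5 or with separate clones, 3 at an unadjusted *p* (5.46%), 4 in the fit of all 12 libraries (5.31% of all genes, *EFNA1*, *EPHA1*, *PLXND1* and *SEMA6A*) and 0 to 3 when each library was left out. At day 12 the 0 called became 2 higher and 2 lower at an unadjusted *p* and 1 lower (*SEMA6A*) with a filter of 20, and stayed at 0 when each library was left out. In WT between the days, 5 rose and 10 fell, which became 2 that rose with a filter of 20, and 1 to 6 and 6 to 11 when each library was left out. In KO, 9 rose and 7 fell, which became 5 that rose with that filter, and 7 to 12 and 7 to 10. For the change between the days, 0 became 7 higher and 3 lower at an unadjusted *p*. The same counts were reached without KO#10 replicate 1 of day 24, against 4.23% and 5.02% of all genes in that fit. Between the clones at day 24, 0 lower became 1 (*SLIT2*) at an unadjusted *p*. Counts given here without a share of all genes do not show a change particular to the guidance genes. Centring the libraries moved no count of guidance genes called, which says little, since the deposited values already had a median of 17 in every library.

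With the replicate number as a block at day 12, 2 guidance genes were higher and 1 lower, in place of 0 and 0, and 0 higher and 1 lower where low values were not filtered either, a setting chosen after seeing the data. At day 24 the numbers were not taken to pair the libraries (r of deviations 0.193, −0.0940 and 0.303). No cutoff was set, and the 0.303 was close to the 0.337 and 0.349 of day 12. The block at day 24 gave 4 higher in place of 5 (*EPHA3* at an adjusted *p* of 0.0625), against 3.57% of all genes. Under the block *EPHA1* was also called lower between the days in KO (−1.15, adjusted *p* = 0.0411), and no other call of the guidance genes changed. The cause of these changes was not tested, apart from *SLIT1* and *EPHA5*, which left the test when their libraries above the filter were removed. Sequencing depth is unknown, so that no counting error could be given for the genes at low scores.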
